A study of Homo sapiens with 8 samples.

Results

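MYC and 9 genes that surround it in band q24 of the long arm of chromosome 8 were followed in SKBR3, an established human breast cancer cell line with amplified ERBB2 (HER2). The genes were taken by name from the symbol column of the deposited count table, as neighbours of MYC in a segment known to be amplified in this line, and all 10 were found among 30434 genes in the table. In map order they are RNF139, TATDN1, MTSS1, SQLE-DT, WASHC5, NSMCE2, TRIB1, MYC, PVT1 and ASAP1, and they span 5969 kb. The study compared 4 libraries of control SKBR3 cells, labelled WT, with 4 libraries of SKBR3 cells labelled FOXA1 knockdown. All cells grew in the same medium with 10% fetal bovine serum. The knockdown cells were a stable line made with lentiviruses that carried 3 short hairpin RNAs against FOXA1, the pioneer factor of luminal breast cells. The labels do not say whether the controls received a vector, whether the stable line was 1 clone or a pool, or whether replicates came from separate cultures, so p-values measure only the spread between these libraries.

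MYC is a transcription factor that binds DNA with its partner MAX, often at the E-box, and raises genes of ribosome production, nucleotide synthesis and cell growth. Its locus at 8q24 is one of the most often amplified in breast cancer, and the noncoding gene PVT1, which lies just downstream, is usually amplified with it. The other members have unrelated roles: TRIB1 is a pseudokinase that brings targets to a ubiquitin ligase, WASHC5 belongs to an actin-regulating complex on endosomes, NSMCE2 is a SUMO ligase of the SMC5/6 complex, RNF139 is a ubiquitin ligase of the endoplasmic reticulum, and MTSS1 and ASAP1 act on membranes and the actin cytoskeleton. Amplification raises the number of DNA copies of such a block together, while each gene in it keeps its own promoter. The copy number of the segment in either line was not measured in these data, so a difference in copies and a difference in transcription cannot be told apart here. In bulk RNA, fewer cells with a transcript and less of it per cell cannot be told apart either.

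FOXA1 itself was at 191.4 CPM ± 1.65 in the controls and 3.95 CPM ± 0.340 in the knockdown libraries, so the libraries matched their labels. CPM are counts per 1000000 of the library total after TMM scaling, and errors are the SD over the 4 libraries of a group (n = 4) unless an SE is named. Library totals ran from 19087878 to 23786684 counts. Control replicate 3 stood apart: on the second principal component, which carried 1.82% of the variance, it lay at -40.1, with the other controls between 9.52 and 16.3. Luminal markers were present in both groups. The 10 listed genes summed to between 19430 and 21600 CPM in control and between 12410 and 13340 CPM in knockdown. ERBB2 had the largest fall among them. By gene they were divided: 5 were lower, 4 higher and 1 not called (edgeR, adjusted p under 0.05). Their median log2 fold change was -0.07. Over all tested genes 37.7% were lower and 39.4% higher. The 7 basal or mesenchymal markers counted summed to between 116.2 and 121.8 CPM in control and between 48.6 and 53.5 CPM in knockdown, mostly FN1. The 5 of them that were tested were divided as well, with 2 lower, 2 higher and 1 not called by edgeR. The 2 higher were TP63 and CDH2. TP63 went from 2 to 4 counts per control library to 162 to 191 counts per knockdown library, and CDH2 from at most 1 count to 33 to 56 counts. The 10 stromal, endothelial and immune markers counted summed to between 31.8 and 33.5 CPM in control and 27.4 and 30.0 CPM in knockdown, and 4 of them (COL1A2, DCN, PTPRC and CD79A) had 3 or fewer counts in every library. The part of these shifts in the results that follow was not tested.

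The members did not move as a block. Of the 9 members with enough counts to test, MYC, TATDN1 and ASAP1 rose in the knockdown libraries, RNF139, MTSS1, WASHC5 and TRIB1 fell, and NSMCE2 and PVT1 were not called (edgeR's quasi-likelihood test, adjusted p under 0.05 over all genes). MYC rose 1.56-fold and TRIB1 was 3.50-fold lower, the largest change in each direction among the members. The 7 called members are 77.8% of those tested, and 77.1% of all 16430 tested genes were called, so the share is that of the background. In the lower direction it was 4 of 9 members (44.4%) against 37.7% of all genes, and in the higher direction 3 of 9 (33.3%) against 39.4%. The CPM of the groups did not overlap for the same 7 members, as for 72.0% of all tested genes. Each of these 7 had an exact two-sided permutation p of 0.0286, the smallest that 4 against 4 libraries can give. The median log2 fold change of the 9 members was -0.14, against 0.02 over all tested genes.

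**Figure D1:**
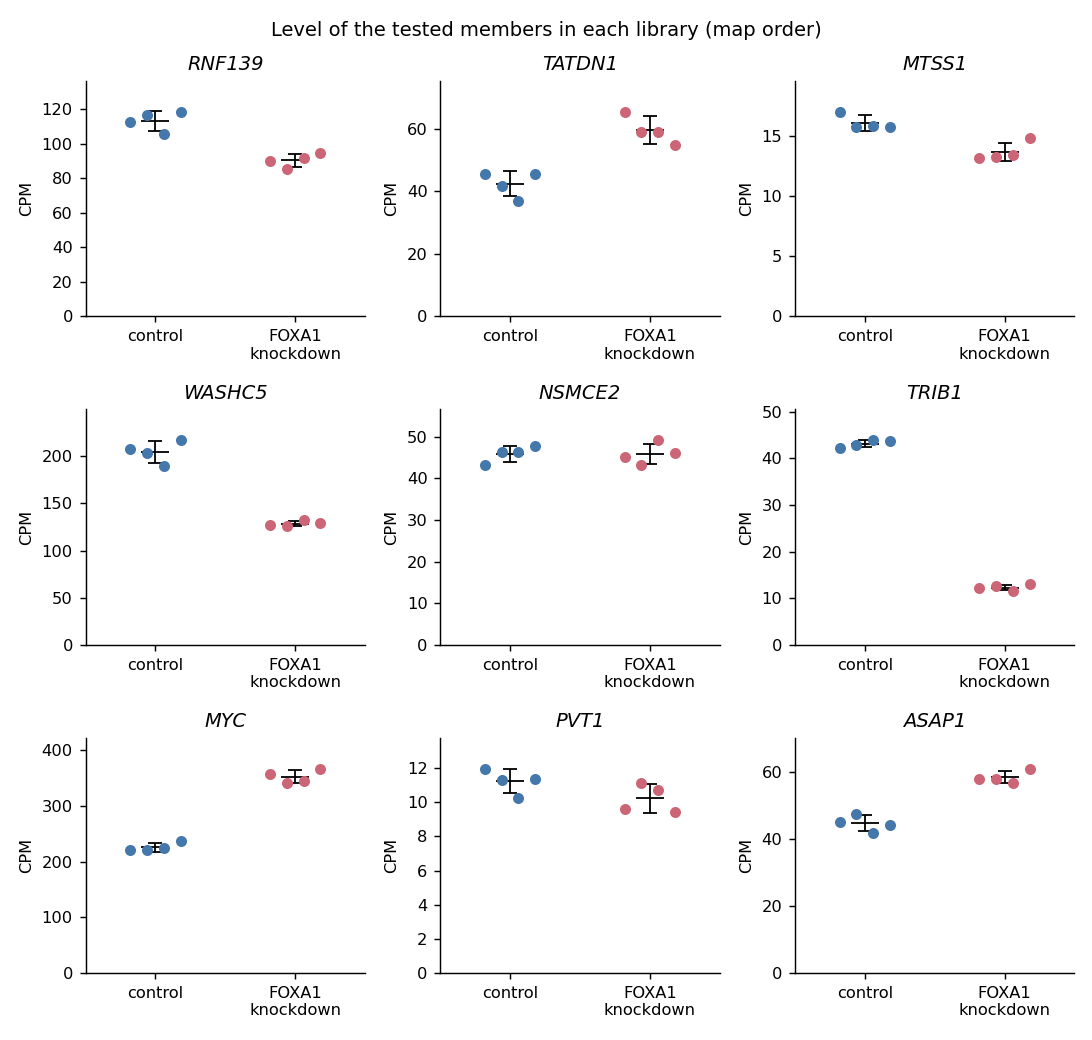
Level of each tested member, in CPM on a linear axis that starts at 0, with 1 point per library, the mean as a horizontal mark and the SD as the bar (n = 4 per group). MYC sits between 219.9 and 237.4 CPM in control and between 340.5 and 366.1 CPM in knockdown, TRIB1 lies between 42.16 and 43.87 CPM in control and between 11.54 and 12.98 CPM in knockdown, and the points of NSMCE2 and PVT1 overlap.

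MYC (ENSG00000136997.20, chromosome 8, 127735434 to 127741434, plus strand, GENCODE 29 on GRCh38) is the oncogenic transcription factor after which the locus is known. It stood at 220.8, 219.9, 224.1 and 237.4 CPM in control replicates 1 to 4 and at 356.2, 340.5, 344.7 and 366.1 CPM in knockdown replicates 1 to 4. Every knockdown library lay above every control library, and the lowest knockdown value was 1.43 times the highest control value. Its log2 fold change was 0.64 (SE 0.0348, adjusted p = 1.13e-14 by edgeR), from a mean of 225.6 CPM ± 8.11 to 351.9 CPM ± 11.6. Per kb of exon, MYC ranked 499 of 13278 tested protein-coding genes in control and 289 in knockdown.

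PVT1 (ENSG00000249859.12, 127794533 to 128101253, plus strand), a long noncoding RNA gene that starts 59.1 kb from the start of MYC and hosts several microRNAs, did not follow MYC. Its level was 11.9, 11.3, 10.2 and 11.4 CPM in the controls and 9.59, 11.1, 10.7 and 9.43 CPM in the knockdown libraries. The groups overlapped, with control replicate 3 below 2 of the knockdown libraries. The log2 fold change of -0.14 (SE 0.0743) did not pass the threshold (adjusted p = 0.125 by edgeR). Without control replicate 3, the library that stood apart, it was -0.18 and did pass (adjusted p = 0.0431 by edgeR; range over 18 alternatives 0.0431 to 0.571). PVT1 was counted with 204 to 272 reads per library and MYC with 4725 to 8391, and the spread of PVT1 was wider (coefficient of variation 6.29% in control and 8.12% in knockdown, against 3.59% and 3.29% for MYC). CASC11, a noncoding gene just upstream of MYC, had at most 9 counts in any library and was not tested.

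TRIB1 (ENSG00000173334.4, 125430321 to 125438405, plus strand) encodes the pseudokinase that presents C/EBP family proteins to the ubiquitin ligase COP1. Control libraries held 42.2, 42.9, 43.9 and 43.7 CPM, and knockdown libraries 12.1, 12.6, 11.54 and 12.98 CPM. The knockdown libraries kept 28.5% of the control level, and the lowest control was 3.25 times the highest knockdown value. This is a log2 fold change of -1.81 (SE 0.0389, adjusted p = 2.95e-20 by edgeR), and no other gene of the table overlapped TRIB1. Per kb of exon its rank among the same protein-coding genes went from 4163 to 8066. All 6 listed partners and paralogues of TRIB1 were called, 4 lower and 2 higher, where 77.1% of all tested genes were called. Its paralogue TRIB2 went from between 444 and 489 counts per control library to between 3 and 9 per knockdown library, and COP1 fell by 0.43 on the log2 scale (SE 0.0284). CEBPA, a target of the TRIB1 and COP1 pair at the protein level, rose from 0.634 CPM ± 0.130 to 54.3 CPM ± 1.48. CEBPB fell by 0.62 on the log2 scale (SE 0.0614), TRIB3 by 0.14 (SE 0.0494), and DET1, a COP1 partner with a second, overlapping entry under its name, had a log2 fold change of 0.57.

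WASHC5 (ENSG00000164961.16, 125024260 to 125091840, minus strand) encodes strumpellin, a core subunit of the WASH complex, which nucleates branched actin on endosomes. It had 207.2, 203.7, 189.9 and 216.9 CPM in control and 127.3, 125.5, 131.9 and 129.1 CPM in knockdown. The knockdown libraries lay within a narrow range, all below the lowest control. On the log2 scale the change was -0.67 (SE 0.0426, adjusted p = 3.52e-14 by edgeR), which leaves 62.8% of the control level. The 8 other genes listed for the complex and its capping protein were divided, with 3 lower, 2 higher and 3 not called, so 62.5% were called, against 77.1% of all tested genes. WASHC3, a small core subunit, fell by 1.08 on the log2 scale, and CAPZA1, which encodes a capping protein subunit, by 0.30. CAPZA2, its paralogue, had a log2 fold change of -0.55 (SE 0.0754). WASHC2A and WASHC2C, near-identical copies on chromosome 10 whose reads can be split uncertainly, had log2 fold changes of 0.89 and 0.94. WASHC1 (0.09), WASHC4 (0.03) and CAPZB (-0.04) were not called.

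NSMCE2 (ENSG00000156831.8, 125091679 to 125367120, plus strand) encodes the SUMO ligase of the SMC5/6 complex, which acts in DNA repair. NSMCE2 and WASHC5 are transcribed away from each other from overlapping 5′ ends, and their exons share 162 bp on opposite strands. Control libraries had 43.2, 46.4, 46.3 and 47.8 CPM and knockdown libraries 45.3, 43.3, 49.2 and 46.0 CPM. The groups overlapped, with means of 45.9 CPM ± 1.92 and 45.9 CPM ± 2.44, an SE of 0.0488 on the log2 scale and an adjusted p of 0.979 by edgeR. Its sign flipped with the scaling and with single libraries left out. Of the 7 tested genes listed for the complex and its loading factors, 5 rose (71.4%) and 1 fell (14.3%). Over all tested genes 39.4% were higher and 37.7% lower. Together 85.7% of the 7 were called, against 77.1% of all tested genes. SLF2 (log2 fold change 0.66) and SLF1 (0.48), which load the complex, and the subunit genes NSMCE1 (0.31), NSMCE3 (0.31) and NSMCE4A (0.24) rose, SMC5 fell by 0.26, and SMC6 was not called (adjusted p = 0.792 by edgeR).

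RNF139 (ENSG00000170881.5, 124474738 to 124487914, plus strand) encodes TRC8, an endoplasmic reticulum ubiquitin ligase with a sterol-sensing domain. It stood at 112.6, 116.7, 105.4 and 118.5 CPM in control and at 89.8, 85.3, 91.9 and 94.4 CPM in knockdown. The groups did not overlap, though control replicate 3 lay near the knockdown range. The log2 fold change was -0.33 (SE 0.0487, adjusted p = 1.59e-07 by edgeR). The 8 genes listed with it in sterol regulation were all called, 5 lower and 3 higher, against 37.7% lower and 39.4% higher over all tested genes. The ligase gene SYVN1, which shares exon sequence with the highly counted FAU, fell by 1.61 on the log2 scale, and INSIG2 by 0.85. INSIG1 (0.67), a known target of the transcription factor SREBP2, rose, as did RNF145 (0.22), which encodes a related ligase. SREBF2, which encodes SREBP2, fell by 0.30 on the log2 scale. SCAP, the escort of SREBP2, fell from 83.8 CPM ± 4.89 to 62.4 CPM ± 1.43.

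TATDN1 (ENSG00000147687.19, 124488485 to 124539458, minus strand), which encodes a protein of the TatD nuclease family, lies next to RNF139 on the map and moved in the opposite direction. Its values were 45.5, 41.7, 37.0 and 45.5 CPM in control and 65.5, 59.2, 59.0 and 54.8 CPM in knockdown. The lowest knockdown library still lay above the highest control, and the spread within groups was the widest among the called members (9.52% and 7.43%). Its log2 fold change was 0.49 (SE 0.0883, adjusted p = 5.12e-06 by edgeR). TATDN1 shares 187 bp of exon with NDUFB9 on the opposite strand, which averaged 16142.5 counts per library against at most 1543 for TATDN1. NDUFB9 itself fell by 0.37 on the log2 scale. Whether the counting used strand is not given in the sources used here, so reads of the pair may not be cleanly told apart.

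MTSS1 (ENSG00000170873.19, 124550790 to 124728429, minus strand), an I-BAR scaffold that bends membranes, changed least among the called members. It had 17.0, 15.7, 15.8 and 15.7 CPM in control and 13.2, 13.3, 13.4 and 14.8 CPM in knockdown. In each group 3 libraries lay close together and 1 lay higher, control replicate 1 and knockdown replicate 4. The groups were separated by a factor of only 1.06, and the log2 fold change was -0.24 (SE 0.0482, adjusted p = 0.00226 by edgeR; range over 18 alternatives 0.00117 to 0.0365). MTSS1 also shares 677 bp of exon with NDUFB9 on the opposite strand, so its low counts of 263 to 372 per library carry the same uncertainty. In its I-BAR family, BAIAP2L2 fell by 1.51 on the log2 scale and BAIAP2L1, which overlaps BRI3, by 0.82, MTSS2 rose (0.18), and BAIAP2 was not called.

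ASAP1 (ENSG00000153317.15, 130052104 to 130443660, minus strand), a GTPase-activating protein for ARF proteins found at focal adhesions, lies farthest from the centromere and rose. Control libraries had 45.1, 47.5, 41.7 and 44.3 CPM and knockdown libraries 58.0, 58.0, 56.7 and 61.0 CPM. All knockdown libraries lay above all controls, by a factor of at least 1.19. The log2 fold change was 0.39 (SE 0.0447, adjusted p = 4.55e-08 by edgeR). Of the 9 genes listed for its family and its ARF and adhesion partners, 7 fell and 2 rose, where 37.7% of all tested genes were lower and 39.4% higher. ASAP3 rose from 16.3 CPM ± 0.854 to 48.5 CPM ± 3.15 and CTTN, an actin-binding partner, fell from 307.2 CPM ± 1.49 to 172.2 CPM ± 4.35. ASAP2, which fell by 0.79 on the log2 scale, shares 2209 bp of exon with ITGB1BP1. The ARF genes ARF1, ARF3, ARF4 and ARF6 fell by between 0.15 and 0.54, ARF5 rose (0.27), and the adaptor gene CRK fell by 0.31.

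SQLE-DT (ENSG00000253513.1, 124996985 to 124998198, minus strand), a divergent transcript beside SQLE, was at the limit of detection. It had 0, 0, 1 and 0 counts in control and 1, 2, 1 and 1 counts in knockdown, all at or under the floor of 3 counts used here, which is worth 0.126 to 0.157 CPM in these libraries. It was not tested, and no fold is given. SQLE, the cholesterol synthesis gene on the other side of the shared start region, fell from 396.0 CPM to 317.0 CPM (log2 fold change -0.32, adjusted p = 1.35e-09 by edgeR).

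Set against exon length, the order of the members changed between the groups. In control it ran from MYC at 75.2 CPM per kb ± 2.70, WASHC5 (42.7 ± 2.33), RNF139 (42.0 ± 2.16), NSMCE2 (15.4 ± 0.643), TRIB1 (10.4 ± 0.189), TATDN1 (8.88 ± 0.845), ASAP1 (5.39 ± 0.290), MTSS1 (2.08 ± 0.0814) to PVT1 (2.04 ± 0.128), each as CPM per kb. WASHC5 and RNF139 overlapped between libraries, as did MTSS1 and PVT1, and the other neighbours in that order did not. In knockdown MYC was at 117.0 CPM per kb ± 3.86, next came RNF139 at 33.5 ± 1.43 ahead of WASHC5 at 26.8 ± 0.568, and TRIB1 had dropped behind TATDN1 and ASAP1 to 2.97 CPM per kb ± 0.151. PVT1 (1.86 ± 0.151) and MTSS1 (1.77 ± 0.0992) were again lowest and overlapped. Lengths are the union of all annotated exons, which overstates the length of genes with many rare isoforms.

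Whether neighbours on the map changed by different amounts was tested on the ratio of their counts within each library, which does not depend on how libraries are scaled. All 8 neighbouring pairs of tested members shifted, each without overlap between groups. Each had an adjusted exact permutation p of 0.0286 over the 8 pairs, the smallest possible. The share of other gene pairs whose ratio shifts was not computed, so whether map neighbours stand out is not known. Taken singly, 72.0% of all tested genes did not overlap between groups. The widest step was from TRIB1 to MYC, whose starts are 2305 kb apart, where the log2 ratio of TRIB1 to MYC went from -2.39 ± 0.0411 to -4.84 ± 0.0648. The next was from NSMCE2 to TRIB1, only 338.6 kb apart, with a shift of 1.81 (SE 0.0712). RNF139 and TATDN1 shifted by -0.82 (SE 0.0860), and WASHC5 and NSMCE2 by -0.67 (SE 0.0526). MYC and PVT1 shifted by 0.78 (SE 0.0973), from a log2 count ratio of 4.33 ± 0.107 to 5.11 ± 0.163.

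MYC was also set against each other member, and 7 of the 8 ratios shifted (adjusted exact permutation p = 0.0327 each). The exception was TATDN1, with a shift of 0.15 (SE 0.0917), overlapping groups and an adjusted exact permutation p of 0.200, which does not show that the pair changed alike. Against ASAP1, the third member that rose, MYC gained 0.25 (SE 0.0543). Against WASHC5 it gained 1.31 (SE 0.0420) and against RNF139 0.97 (SE 0.0415). Here too the share of shifts over other gene pairs was not computed.

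**Figure D2:**
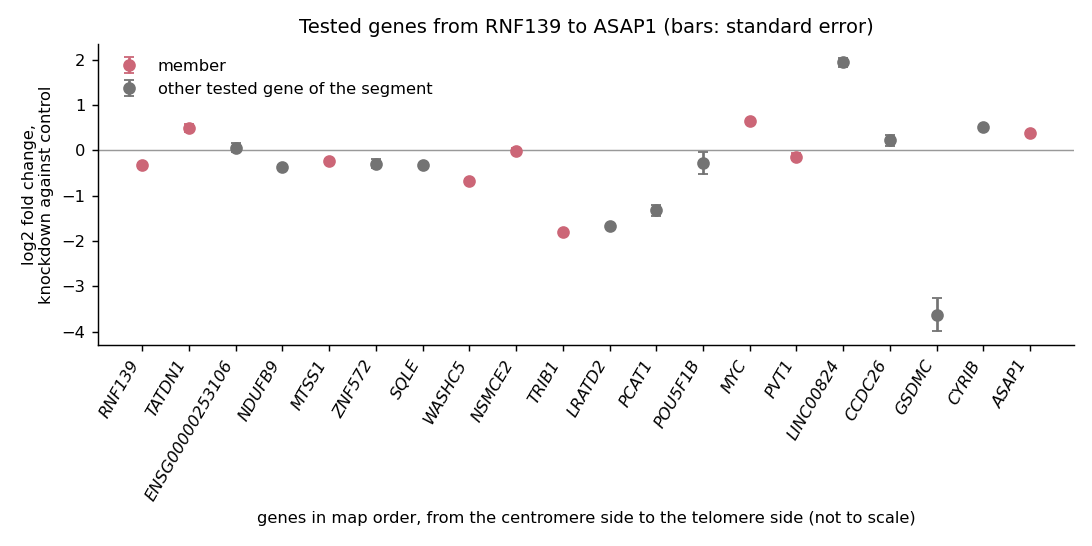
Log2 fold change of knockdown against control for the 20 tested genes between RNF139 and ASAP1, in map order along the x axis, with the standard error as the bar; members are coloured and the other genes grey. The sign changes several times along the segment; among members the values run from -1.81 at TRIB1 to 0.64 at MYC, while GSDMC, at 4 counts or fewer per knockdown library, lies lowest and LINC00824 highest.

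The segment from RNF139 to ASAP1 held 20 tested genes, of which 10 were lower, 5 higher and 5 not called, with a median log2 fold change of -0.26. For comparison, 77.1% of all tested genes were called, 37.7% lower and 39.4% higher. Without the members the segment had 6 lower, 2 higher and 3 not called among 11. Among these, singled out after their values were seen, LRATD2 and PCAT1 lie between TRIB1 and MYC and were lower, as TRIB1 was, while POU5F1B, the third tested gene there, had between 7 and 15 counts per library and was not called (log2 fold change -0.27, adjusted p = 0.422 by edgeR). LRATD2 went from 138.5 CPM ± 3.99 to 43.3 CPM ± 1.56 and PCAT1, a noncoding RNA that shares 1163 bp of exon with LRATD2 on the opposite strand, from 4.89 CPM ± 0.532 to 1.95 CPM ± 0.245. On the other side of PVT1, the noncoding LINC00824 was higher, at 1.08 CPM in control and 4.18 CPM in knockdown. GSDMC, a gasdermin gene, had between 30 and 40 counts per control library and between 1 and 4 per knockdown library, near the floor.

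Around the segment, genes on its near and far side had medians of opposite sign. No test was made of that difference. The 25 nearest tested protein-coding genes on the centromere side of the segment had a median log2 fold change of -0.20, with 15 lower and 5 higher. The 25 nearest on the telomere side had a median of 0.27, with 7 lower and 15 higher. Counted from the start of MYC, the centromere-side genes start between -9.55 and -3.29 Mb. Those on the telomere side start between 4.17 and 15.5 Mb, a wider stretch. Over all 544 tested genes of chromosome 8 the median was -0.04, with 40.6% lower and 36.0% higher. For the 435 protein-coding ones among them it was -0.05, with 43.7% lower and 38.4% higher. From a list of 43 genes of 8q24 other than the members, 34 were in the table and 23 were tested. The list shares genes with the segment and flank counts above, so it does not add to them. Of the 23, 13 were lower (56.5%) and 5 higher (21.7%), with a median of -0.27. Over all tested genes 37.7% were lower and 39.4% higher. Among the listed genes with a mean of 50 counts or more, the largest falls were in ST3GAL1, NDRG1 and FBXO32. ST3GAL1, a sialyltransferase gene, went from 70.6 CPM ± 1.58 to 1.56 CPM ± 0.229. NDRG1, a stress and differentiation gene, went from 226.2 CPM ± 7.55 to 44.1 CPM ± 1.05. FBXO32, a ubiquitin ligase subunit gene, went from 61.2 CPM ± 1.20 to 17.8 CPM ± 0.516. KHDRBS3, an RNA-binding protein gene, rose from 0.897 CPM ± 0.168 to 9.73 CPM ± 0.849, and CYRIB and TMEM65 rose with log2 fold changes of 0.52 and 0.42.

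**Figure D3:**
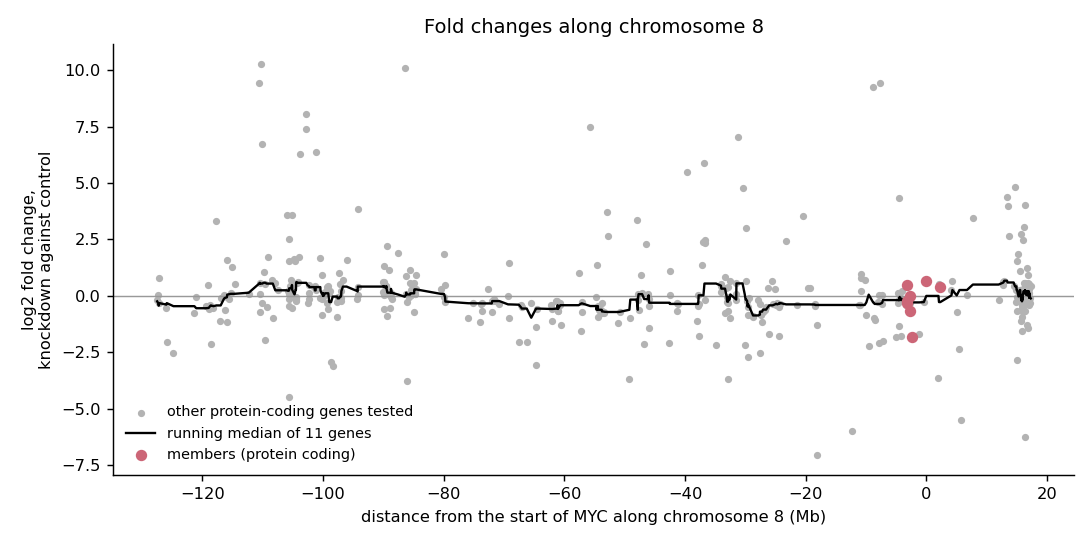
Log2 fold change of each tested protein-coding gene of chromosome 8 against its distance from the start of MYC in Mb, with a running median of 11 genes as the line and the 8 protein-coding tested members as coloured points. The members lie between -1.81 and 0.64, inside the spread of the other genes.

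The genes that MYC is known to raise were higher in knockdown for the most part. Of 63 listed target genes, all tested, 52 (82.5%) were higher, 4 lower and 7 not called, with a median log2 fold change of 0.38. Over all tested genes 39.4% were higher and the median was 0.02. The list was drawn from general knowledge, but with earlier results of these data known, so this contrast is not an independent test. Nucleolar and ribosome-assembly genes were among them: NPM1, which encodes nucleophosmin, rose from 1174 CPM ± 55.9 to 2732 CPM ± 155, and FBL, which encodes the RNA methyltransferase fibrillarin, went from 146.7 CPM ± 6.89 to 340.8 CPM ± 12.3. NCL rose with a log2 fold change of 0.49 and NOP56 with one of 0.25. Other ribosome-assembly genes of the list were not called. These were GNL3 (log2 fold change 0.04), GRWD1 (0.06), IMP4 (-0.06), MPHOSPH10 (0.04) and PPAN (-0.07). In nucleotide and polyamine synthesis, the values were 1.07 (SE 0.0252) for CAD, which encodes the first steps of pyrimidine synthesis, and 1.07 (SE 0.0545) for ODC1, the first enzyme of polyamine synthesis. The cell cycle kinase gene CDK4 had one of 0.59.

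The 3 largest rises among target genes with a mean of 50 counts or more were in TERT, the catalytic subunit gene of telomerase, from 1.55 CPM ± 0.217 to 7.40 CPM ± 0.558, in the nucleoside transporter gene SLC29A2, from 16.8 CPM ± 0.870 to 55.6 CPM ± 0.820, and in NPM1. The largest falls were in LDHA, which makes lactate from pyruvate, from 1165 CPM ± 32.6 to 853.1 CPM ± 21.4, in SLC19A1, a folate transporter gene that shares 1401 bp of exon with COL18A1, and in the mitochondrial gene TBRG4, both with log2 fold changes near those of LDHA (-0.43 and -0.41). Genes of chromosome 5 as a whole were higher in knockdown (median 0.45), and that chromosome carries TERT, NPM1, TCOF1 and NOP16. Without these 4, 48 of 59 target genes were higher and 4 lower, with a median of 0.34, a count added after seeing the data. Set against the median of their own chromosome, 51 of the 63 (81.0%) lay above it. The part of cell growth rate in these counts was not tested.

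**Figure D4:**
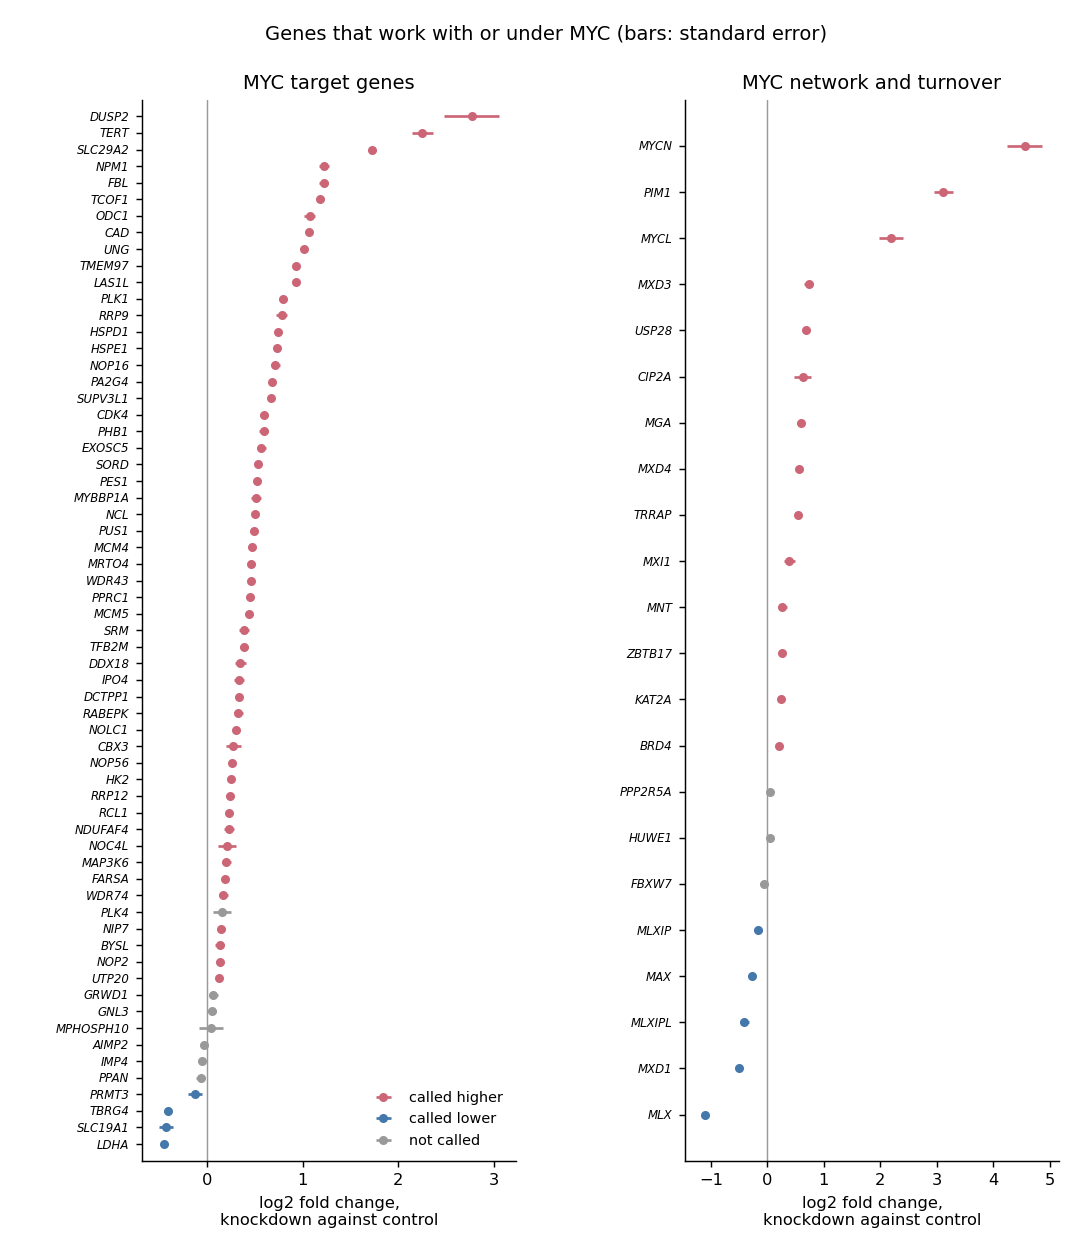
Log2 fold change of knockdown against control for the 63 listed MYC target genes (left) and the 22 genes of the MYC network and its turnover (right), sorted by value, with the standard error as the bar. Points right of 0 are higher in knockdown; 52 of 63 target genes are called higher, and MYCN has the largest value on the right.

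The E-box CACGTG, which reads the same on both strands, was looked up in the RefSeq promoters (GRCh38.p14), taken from 250 bases before to 50 bases after each gene's start. It was present in 23 of the 53 target genes with a promoter in the table (43.4%) and in 1147 of 11557 tested genes (9.92%). It was in 20 of 43 promoters of targets called higher, 2 of 4 of those called lower and 1 of 6 of those not called. A match is a run of letters and not a measured binding site. None of the 10 members had a promoter in the table.

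The partners and rivals of MYC changed in both directions. Of 22 genes, 14 were higher, 5 lower and 3 not called (63.6% higher, against 39.4% of all tested genes), with a median log2 fold change of 0.26. Its 2 paralogues rose from low levels that were above the floor: MYCN had 9, 5, 13 and 13 counts in control and 243, 246, 228 and 242 in knockdown, and MYCL went from 1.14 CPM ± 0.294 to 5.24 CPM ± 0.358. MYCN shares 98 bp of exon with its antisense gene MYCNOS, which averaged 74.75 counts. The kinase gene PIM1 rose from 2.34 CPM ± 0.512 to 20.3 CPM ± 1.05.

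MAX, the obligate partner of MYC, fell by 0.27 on the log2 scale (SE 0.0493, adjusted p = 1.70e-05 by edgeR). Of the MAX-binding repressors, MXD1 fell by 0.50, while MXD3 (0.73), MXD4 (0.56), MXI1 (0.39), MNT (0.26) and MGA (0.59) rose. MXD3 shares 926 bp of exon with RAB24 on the same strand. It also shares 1158 bp with PRELID1 on the opposite strand, which averaged 6320.25 counts against 525.12 for MXD3. MXD1 shares 237 bp of exon with SNRNP27 on the same strand. In the parallel MLX branch, MLX, which shares 770 bp of exon with PSMC3IP, fell by 1.10, MLXIP by 0.17 and MLXIPL by 0.41. Of the genes that set the turnover of MYC protein, FBXW7, HUWE1 and PPP2R5A were not called, and USP28 (0.68) and CIP2A (0.63), which encodes an inhibitor of the phosphatase PP2A, rose. MYC protein was not measured in these data.

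The genes whose pattern over the 8 libraries was most like that of MYC were sought by the root mean square difference of log2 CPM, centred on the control mean, among 12419 other genes that averaged 50 counts or more. They were DDX50 (0.0250), RAP2B (0.0326), CCNE1 (0.0347), GTF2H2C (0.0368) and UBA2 (0.0368), which lie on chromosomes 10, 3, 19, 5 and 19. None was on chromosome 8. For PVT1 they were DHX58 (0.0342), MBNL1 (0.0474), TMEM170B (0.0490), UBR3 (0.0521) and FAM91A1 (0.0528), of which FAM91A1 lies in 8q24 as well.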

How the data were processed

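RNA from SKBR3 cells was extracted with Trizol and sequenced as paired reads of 101 bp on an Illumina NextSeq system, per the labels' protocols. The authors deposited whole-number counts per gene under Ensembl identifiers with a symbol column. The submitters' processing notes name FastQC, Salmon 1.9, DESeq2 and build hg38 without their roles; if Salmon made the table, its estimates were rounded. Strand use and annotation release are not given in the sources used here. Of the identifiers, 96.5% matched GENCODE 29 (GRCh38), the source of positions and exon lengths.

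Genes were kept by edgeR's filterByExpr (16430 of 30434), scaled by TMM and tested with glmQLFit (robust) and glmQLFTest in edgeR 4.0.16 under R 4.3.3, Benjamini-Hochberg adjusted over all genes tested, threshold 0.05. CPM is the count per 1000000 of the TMM-scaled library total; SEs of log2 fold changes come from replicate log2 CPM with 0.5 added to each count. Count ratios, with 0.5 added, were tested by an exact two-sided permutation over 70 divisions of the libraries. The design listed 9 pairs per family; SQLE-DT, at the floor in both groups, was left out, which leaves 8. The edgeR fit was checked on simulated counts in which a small share of genes changed. That check does not cover data in which most genes are called, as here. The permutation test was checked on a made-up example against another implementation. Alternatives were other scalings, filters and tools (DESeq2 1.42.0, limma 3.58.1), a replicate block and leaving out each library.

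All members are named, as are genes the text describes from lists with 10 or fewer tested genes, and for longer lists the 3 largest rises and falls with a mean of at least 50 counts; other list genes named were chosen after their values were seen. Members and lists were chosen with earlier results of these data known. Some genes of the sterol list are counted but not reported here by name.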

Additional observations from a re-analysis of the deposited data

Results flagged for a closer look

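Dixon's outlier ratio, the gap between the extreme library and its closest neighbour as a share of the whole range, was computed in 56 groups of 4 libraries, and it passed the 95% critical value in 4 of them, where chance gives about 1 in 20 (2.8 groups). MTSS1 was high in control replicate 1 (17.01 CPM against 15.71 to 15.84 in the other controls, ratio 0.899) and in knockdown replicate 4 (14.79 CPM against 13.16 to 13.38, ratio 0.866). MLXIPL, a sugar-sensing factor gene of the MLX branch, was high in control replicate 4 (5.939 CPM against 5.304 to 5.351, ratio 0.927) and low in knockdown replicate 3 (3.611 CPM against 4.245 to 4.343, ratio 0.865). The libraries concerned differ from case to case, and control replicate 3 is not among them. No cause was tested.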

How the results depend on the processing

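Over 18 alternatives the counts of members called ran from 4 to 5 lower and were 3 higher in each, those of MYC target genes from 3 to 4 lower and from 49 to 55 higher, and all genes called from 10279 to 15028. The log2 fold changes of RNF139, TATDN1, MTSS1, WASHC5, TRIB1, MYC and ASAP1 kept their direction and stayed past the threshold in all 18; that of MYC lay between 0.62 and 0.72 and that of TRIB1 between -1.83 and -1.72. PVT1 passed the threshold only without control replicate 3. NSMCE2, not called in any of them, changed sign to 0.082 with library totals only, 0.058 with upper-quartile scaling and 0.013 when only genes averaging 50 counts or more were fitted, and lay between -0.033 and 0.028 when single libraries were left out; the cause was not tested. Library totals only moved the median log2 fold change of all genes by 0.083. With pseudocounts of 1 or 0.1 the same 8 and 7 ratio tests passed. When single libraries were left out the ratios kept their direction, as values with no test. The replicate numbers did not pair the samples (correlations of deviations 0.020, 0.056, -0.031 and -0.001 for replicates 1 to 4), and a fit with the replicate block called 12453 genes, with the members called unchanged at 4 lower and 3 higher and a log2 fold change of 0.64 for MYC. SQLE-DT could not be compared at this depth.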
